A study of Mus musculus with 12 samples.

Results

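The comparison described here set basal forebrain RNA of mice labelled DKO, for double knockout, against basal forebrain RNA of control mice labelled Con. The arrays were chosen by their region and genotype labels, which gave 6 of the 12 arrays of the series, 3 per genotype, each from a separate mouse. The other 6 arrays hold cortex of the same mice. Of 37042 gene names on the array, 25914 were tested. The DKO mice carried Cre driven by Chat (ChatCre), the gene of the enzyme that makes acetylcholine, together with a homozygous null Psen2 (PS2-/-). The Con mice had no Cre (Cre-) and were heterozygous for the null Psen2 (PS2+/-), so they also carried 1 null copy, and the presence of Cre was not matched between the groups. Cre from Chat acts in cholinergic neurons, whereas the arrays read all cells of the dissected tissue. All mice were 2 months old and labelled male, and were killed by cervical dislocation before the tissue was frozen.

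Gamma-secretase is a membrane protease that cuts APP and the Notch receptors, and Psen2 codes for one of its alternative catalytic subunits. The basal forebrain holds the cell bodies of the cholinergic neurons that project to cortex and hippocampus and express Chat, Slc18a3, Slc5a7 and Ngfr. B cells, neutrophils and erythroid cells lie in blood, marrow and the borders of the brain and are rare in its tissue, so their transcripts are normally dim in brain RNA.

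A level below is the log2 intensity of a probe minus the 75th percentile of its array, so 0 is that percentile and levels of different genes are not set against each other. A difference is DKO minus Con on this log2 scale, given with its standard error (SE), and a gene passed the test when its adjusted p (limma, Benjamini-Hochberg over all genes) was under 0.05. The scanner called 71.2% to 74.97% of probes well above background on each of the 6 arrays. All 6 lay on slide 1, with the DKO arrays and Con 1 in row 1 and Con 2 and Con 3 in row 2, so position and genotype were partly tied. DKO 1 and DKO 3 went against their sex label. Xist, the RNA of the inactive X chromosome, stood at -1.89, -8.49 and -1.53 in DKO 1, 2 and 3 and at -8.17, -9.13 and -7.80 in Con. The Y-linked Ddx3y stood at -8.75, -1.55 and -8.99 in DKO and at -1.23, -1.48 and -1.45 in Con. The Y-linked Eif2s3y and Uty were also low in DKO 1 and DKO 3 alone. A probe of the Y-linked Kdm5d did not set these mice apart, at -0.68, -1.04 and -1.20 in DKO and -0.75, -1.06 and -0.49 in Con. Values with and without DKO 1 and DKO 3 are therefore given below.

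The targeted Psen2 (probe at chr1:182157610-182157669, mm9 build) stood at -1.86, -1.44 and -1.25 in DKO and at 0.39, 0.25 and 0.42 in Con. All 3 DKO arrays were below all 3 Con arrays. Psen2 RNA fell by 1.87 (SE 0.16, adjusted p = 0.0327, limma), which is 3.65-fold lower. A second Psen2 probe, whose sequence is shown because it separated the genotypes further, lies at chr1:182169008-182169067 (mm9) and reads, 5′ to 3′:
Psen2 probe: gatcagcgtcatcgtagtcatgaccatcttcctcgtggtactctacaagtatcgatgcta
It stood at -8.26, -7.08 and -7.49 in DKO, where the scanner called it well above background on 0 of 3 arrays, and at -3.88, -3.96 and -3.35 in Con, where it was above background on all 3. Its level was at least 7.34-fold lower in DKO. A bound of this kind sets the mean of the brighter group against the mean of the dimmer group after each dim value was raised to the lowest signal called well above background on that array. Such a bound holds only for the scanner's background subtraction, and another background correction can give a smaller difference.

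Genes of B cells led the genes that passed. Of 25914 genes, 8 passed (0.0309%), 6 higher and 2 lower in DKO. The 6 were Ms4a1, Cd79b, Cxcr5, Fcrla, Spib and an immunoglobulin lambda constant probe, and the 2 were Psen2 and Ifi205. Ms4a1, Cxcr5 and Fcrla entered the test through their DKO arrays alone and Ifi205 through its Con arrays alone. Their p values therefore rest on values not above background in the other group. With probes above background on all 6 arrays, 2 genes passed, Cd79b and the lambda probe, with Spib at an adjusted p of 0.0527 and Psen2 at 0.0528 (limma). When arrays were scaled by their median in place of the 75th percentile, 16 genes passed as higher and 2 as lower, and the 8 genes were among them.

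**Figure D1:**
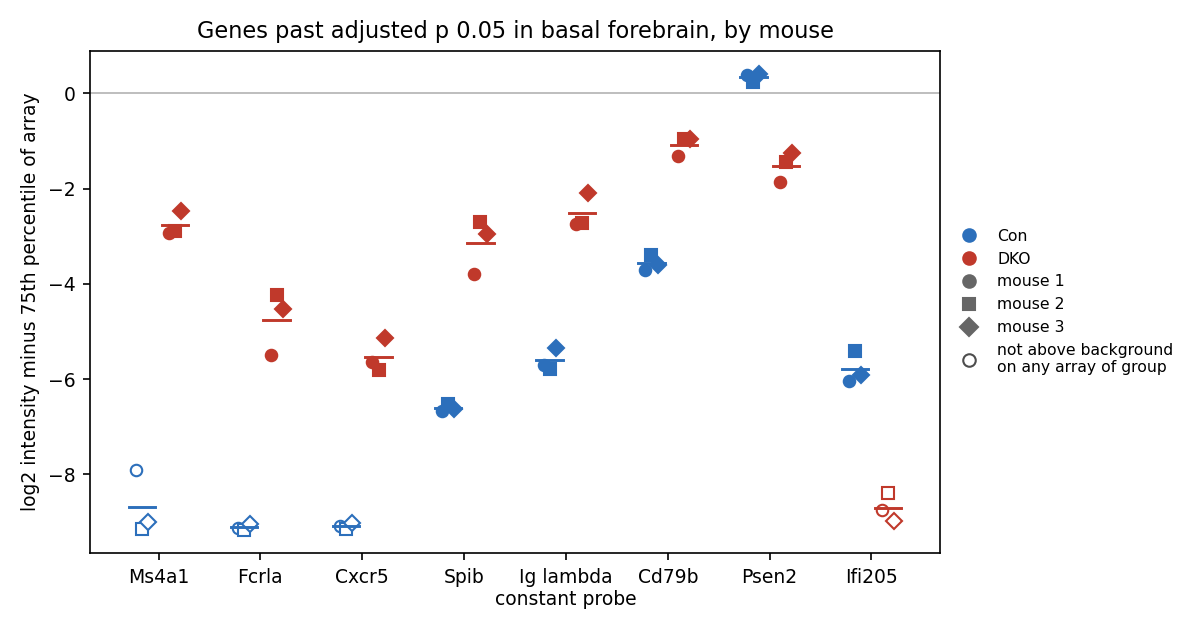
Levels of the 8 genes that passed, on the log2 scale after subtraction of the 75th percentile of each array (vertical axis), for the 3 Con mice (blue) and the 3 DKO mice (red), with the symbol marking the mouse and a line the group mean. For each of the 8 genes the groups do not overlap, and for Ms4a1, Fcrla and Cxcr5 the 3 Con values (open symbols) were not well above background.

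Ms4a1, which encodes CD20, a surface protein of B cells, stood at -2.94, -2.90 and -2.48 in DKO and at -7.91, -9.15 and -9.01 in Con. It was well above background on all DKO arrays and on 0 Con arrays, and rose at least 16.3-fold (fitted difference 5.92, SE 0.36, adjusted p = 0.0145, limma). The plot of the 8 genes by mouse shows its Con values as open symbols, so under this processing the size of the gap is known only as this bound. With normexp background correction (offset 50) the difference of this probe was smaller, at 1.98 (adjusted p = 0.00442, limma). A second Ms4a1 probe did not follow the first: it stood at -5.41, -6.09 and -5.98 in DKO and at -6.15, -5.91 and -6.52 in Con, and its groups overlapped. The first 30 of the 60 bases of each probe are printed because they read different stretches of the gene, at chr19:11325409-11325468 for the first and chr19:11324334-11324393 for the second (mm9).
Ms4a1 first probe: cagaaatgtaatgggttcccagatctcaaa
Ms4a1 second probe: ccgctatgcctggagaggatggggaggtgg

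Cd79b, a signalling chain of the B-cell receptor, stood at -1.32, -0.95 and -0.96 in DKO and at -3.71, -3.39 and -3.60 in Con. It was above background on all 6 arrays and rose 5.62-fold (difference 2.49, SE 0.16, adjusted p = 0.0145, limma). Cxcr5, the receptor that draws B cells into follicles, stood at -5.65, -5.81 and -5.13 in DKO and at -9.10, -9.16 and -9.02 in Con, where no array was above background. It rose at least 2.40-fold (adjusted p = 0.0145, limma), but with normexp background correction it differed by 0.65 (adjusted p = 0.0771, limma). Fcrla, an intracellular Fc receptor-like protein of B cells, stood at -5.49, -4.24 and -4.53 in DKO and between -9.18 and -9.04 in Con. It rose at least 4.11-fold (adjusted p = 0.0222, limma), but with normexp background correction it differed by 0.86 (adjusted p = 0.168, limma). Spib, an Ets-family transcription factor of B cells, stood at -3.79, -2.70 and -2.96 in DKO and at -6.67, -6.53 and -6.63 in Con, a rise of 10.98-fold (difference 3.46, SE 0.30, adjusted p = 0.0327, limma). DKO 1 was the lowest of the DKO mice for Cd79b, Fcrla and Spib.

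The immunoglobulin lambda constant probe (ENSMUST00000200235 in the files, chr16:19065462-19065521, mm9) stood at -2.74, -2.71 and -2.08 in DKO and at -5.70, -5.78 and -5.34 in Con. It rose 8.55-fold (difference 3.10, SE 0.24, adjusted p = 0.0222, limma). A second probe of the same transcript overlaps it and differed by 3.25. The constant genes of this locus are near copies of each other, so which of them the signal came from is uncertain.

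The number of calls depended on which mice were included. Without DKO 3, and likewise without Con 3, 0 genes passed (limma), and 3.03% and 3.89% of genes had an unadjusted p under 0.05. Without Con 1, 1 gene passed, without DKO 1, 6, and without DKO 2, 13, while without Con 2, 29 passed, the 8 genes among them. With DKO 2 as the only DKO mouse, the differences were 5.79 for Ms4a1, 2.62 for Cd79b, 3.28 for Cxcr5, 4.88 for Fcrla, 3.91 for Spib, 2.89 for the lambda probe, -1.79 for Psen2 and -2.62 for Ifi205. In that comparison the lone mouse was assumed to vary like the Con mice, 0 genes passed and 1.38% of genes had an unadjusted p under 0.05. Within row 1 of the slide, where Con 1 was the only Con array, the differences ran from 5.14 for Ms4a1 to -2.68 for Ifi205 and 0 of the 8 genes passed.

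Of 30 listed B-cell genes, 26 were measured and 5 passed, as above. A total of 13 were higher with an unadjusted p under 0.05, against 2.65% of all genes, and 15 were higher in DKO without overlap of the groups, against 4.66%. The median difference of the list was 0.54 against 0.00 over all genes. These counts and this median include Ms4a1, Cxcr5, Fcrla and Ly6d, which entered the test through their DKO arrays alone. The counts were not taken without such genes. With probes above background on all 6 arrays the list's median was 0.30, and with normexp background correction it was 0.32. Ly6d, a surface protein of early B-lineage cells, stood at -3.60, -2.84 and -2.86 in DKO and at -6.22, -7.42 and -6.65 in Con (difference 3.67, SE 0.36), just outside the threshold with an adjusted p of 0.0535 (limma). The groups did not overlap.

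Further down the list, Vpreb3, a protein that binds immunoglobulin chains in early B-lineage cells, stood at -2.93, -0.83 and -1.89 in DKO and at -4.58, -5.06 and -4.24 in Con (difference 2.74, SE 0.51, adjusted p = 0.591, limma). Fcmr, the Fc receptor for IgM, differed by 2.02 (SE 0.27, adjusted p = 0.184, limma) and Pou2af1, a coactivator of octamer-binding factors in B cells, by 2.21 (SE 0.41). The inhibitory receptor Btla differed by 1.02 (SE 0.20). Several members gave small values. Ebf1, which pericytes express, differed by -0.04 (SE 0.10) and Cd22, which microglia express, by 0.42 (SE 0.26). Blnk differed by -0.29 (SE 0.12). It was the 1 listed gene lower with an unadjusted p under 0.05 (limma, against 1.76% of all genes). Pax5 differed by 0.28 (SE 0.23) and the complement receptor Cr2 by 0.05 (SE 0.13). Of 8 measured plasma-cell genes 1 was higher and 1 lower with an unadjusted p under 0.05, against 2.65% and 1.76% of all genes, with Mzb1 at a difference of 0.80 and Jchain, the joining chain of secreted IgM and IgA, at -0.73. A pair of lists written after the values were seen divided the lineage by stage: 7 of 12 early B-lineage genes and 7 of 13 mature B-cell genes were higher with an unadjusted p under 0.05, against 2.65% of all genes. These counts include genes that entered through their DKO arrays alone, such as Ly6d among the early and Ms4a1 among the mature genes. Among the early genes, Vpreb2, a surrogate light chain of the pre-B receptor, differed by 1.61 (SE 0.49), the ectoenzyme Bst1 by 1.46 (SE 0.29) and the progenitor transcription factor Myb by 1.13 (SE 0.33). In tissue RNA, more cells of a type and more RNA per cell cannot be told apart.

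The bases before the transcription start of these genes are shown because they moved together and some are targets of known B-cell factors. Of the 15 B-cell genes higher without overlap, 10 had an entry in the RefSeq promoter table (GRCm38.p6). The 250 bases before the start were searched on both strands for the octamer ATGCAAAT, for GAGGAA, the core bound by Spi-B and other Ets factors, and for the palindrome of EBF factors, whose half-site TCCC is followed after any 2 bases by its reverse complement. GAGGAA was present for 6 of the 10 genes against 23.3% of all 32851 windows of this length, the octamer for 1 against 1.60%, and the EBF palindrome for 0 against 0.779%. A gene counted if any of its windows matched, while the shares are per window. Siglecg, among the genes with GAGGAA, had another window without it. A match is a description of the sequence and not a site. Capitals mark the matches, each sequence reads 5′ to 3′ towards the start, and Fcrla and Spib were taken as genes that passed, Fcmr and Vpreb3 for their matches.
Fcrla, chr1:170927584-170927833, minus strand: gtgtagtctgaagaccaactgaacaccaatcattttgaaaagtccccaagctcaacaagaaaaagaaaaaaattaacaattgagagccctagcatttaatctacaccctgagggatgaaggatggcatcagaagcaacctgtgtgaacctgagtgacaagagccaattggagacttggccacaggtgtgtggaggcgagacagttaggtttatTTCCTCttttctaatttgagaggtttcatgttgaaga
Fcmr, chr1:130865527-130865776, plus strand: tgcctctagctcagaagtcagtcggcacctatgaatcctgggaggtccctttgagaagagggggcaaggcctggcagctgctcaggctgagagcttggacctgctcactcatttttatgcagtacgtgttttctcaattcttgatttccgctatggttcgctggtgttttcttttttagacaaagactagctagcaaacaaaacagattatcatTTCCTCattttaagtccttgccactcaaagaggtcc
Vpreb3, chr10:75948050-75948299, plus strand: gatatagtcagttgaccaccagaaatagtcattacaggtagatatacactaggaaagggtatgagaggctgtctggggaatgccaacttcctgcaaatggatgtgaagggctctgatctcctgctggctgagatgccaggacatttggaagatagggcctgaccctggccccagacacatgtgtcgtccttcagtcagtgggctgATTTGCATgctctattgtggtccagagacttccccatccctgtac
Spib, chr7:44532072-44532321, minus strand: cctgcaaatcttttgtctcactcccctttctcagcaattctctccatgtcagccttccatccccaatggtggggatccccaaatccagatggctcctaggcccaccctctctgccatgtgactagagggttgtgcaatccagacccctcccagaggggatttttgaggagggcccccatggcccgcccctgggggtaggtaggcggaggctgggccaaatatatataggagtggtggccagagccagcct
The match began 37 bases before the start in Fcrla and 36 in Fcmr, both on the strand opposite to the gene, and the octamer 45 bases before the start in Vpreb3. The Spib window held none of the 3 motifs. Ms4a1, Cd79b, Cxcr5 and Ly6d had no entry.

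Neutrophil genes were higher in all 3 DKO mice, with none past the adjusted threshold. Of 27 measured genes 0 passed, 15 were higher with an unadjusted p under 0.05 (limma, against 2.65% of all genes), 16 were higher without overlap (against 4.66%) and 26 had a positive difference, with a median of 0.79. With normexp background correction that median was 0.42, and with probes above background on all 6 arrays it was 0.73. The counts of this list and of the other blood-cell lists below were not taken with that filter. S100a8, a subunit of the calcium-binding protein calprotectin, stood at 0.94, -0.27 and -0.38 in DKO and at -2.66, -2.76 and -3.72 in Con, a difference of 3.14 (SE 0.42, adjusted p = 0.178, limma). Its partner S100a9 stood at 2.58, 1.69 and 1.43 in DKO and at -0.71, -0.94 and -1.89 in Con (difference 3.08, SE 0.39, adjusted p = 0.144, limma). DKO 1 was the highest of all mice for both, and the groups did not overlap.

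Ltf, which encodes the granule protein lactoferrin, stood at -1.96, -2.68 and -2.85 in DKO and at -5.13, -5.18 and -6.35 in Con (difference 3.06, SE 0.39). Lcn2, an iron-carrier protein that reactive astrocytes also make, stood at 1.12, -0.35 and -1.07 in DKO and at -3.16, -3.26 and -2.95 in Con (difference 3.02, SE 0.50). Ngp differed by 2.96 (SE 0.41), and the protease Ctsg by 1.37 (SE 0.19, adjusted p = 0.226, limma). In each, all DKO values were above all Con values. Basophil and mast-cell genes, a list written after the values were seen, had 2 of 10 higher with an unadjusted p under 0.05, against 2.65% of all genes. The basophil protease Mcpt8 stood at -4.40, -4.65 and -5.37 in DKO and was not above background on any Con array, so it was at least 3.96-fold higher (adjusted p = 0.0981, limma). It entered the test, and so the count of its list, through its DKO arrays alone. Prss34, another basophil protease, differed by 1.33 (SE 0.19).

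Erythroid genes were higher in DKO as well, with DKO 1 the highest. Of 22 measured genes 0 passed, 12 were higher and 1 lower with an unadjusted p under 0.05 (limma, against 2.65% and 1.76% of all genes), and the median difference was 0.33. With probes above background on all 6 arrays the median was 0.27. The beta-globin gene Hbb-bt stood at 7.14, 5.38 and 5.96 in DKO and at 3.84, 4.13 and 3.94 in Con (difference 2.19, SE 0.40). Alas2, the first enzyme of haem synthesis in erythroid cells, stood at 2.65, 0.60 and 1.22 in DKO and at -1.15, -0.85 and -1.36 in Con (difference 2.61, SE 0.48). Slc4a1, the anion exchanger of the red-cell membrane, differed by 3.09 (SE 0.35, adjusted p = 0.0981, limma), and Ahsp, the chaperone of alpha-globin, by 2.57 (SE 0.34). Globin probes can read near-identical copies, so the share of each copy is uncertain.

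Of 16 platelet genes 0 passed and 7 were higher with an unadjusted p under 0.05 (limma, against 2.65% of all genes), with a median difference of 0.42. That median was also 0.42 with probes above background on all 6 arrays. Ppbp, the most abundant platelet chemokine precursor, stood at -1.91, -2.76 and -2.60 in DKO and at -4.44, -4.09 and -4.47 in Con (difference 1.91, SE 0.25, adjusted p = 0.178, limma). Treml1, a receptor of platelet granules, differed by 1.18 (SE 0.23). The erythroid, B-cell and neutrophil lists were each higher in DKO than in Con. The mean level over the 22 erythroid genes was 1.05 to 1.70 in DKO and 0.38 to 0.48 in Con, and none of the globins was at background. The mice were not in the same order, since DKO 1 had the highest erythroid mean and, at -2.998 against -2.625 and -2.621, the lowest B-cell mean of the 3 DKO mice. The part of blood in the tissue in these results was not tested.

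**Figure D2:**
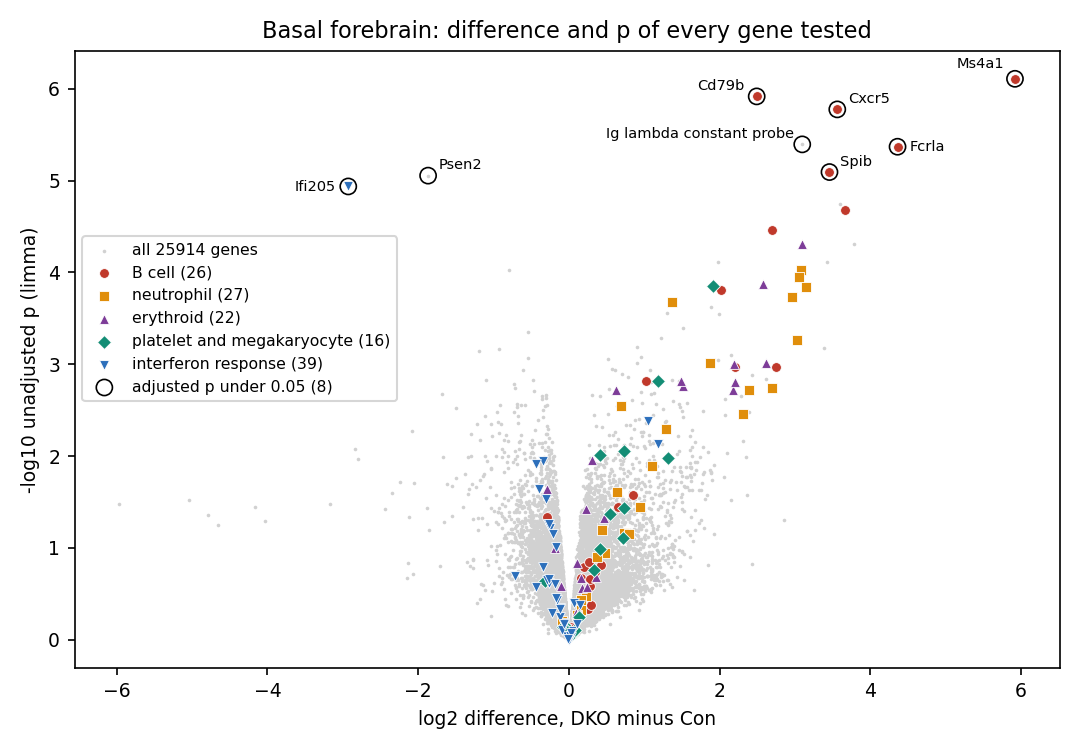
Log2 difference, DKO minus Con (horizontal axis), against -log10 of the unadjusted limma p (vertical axis) for 25914 genes in grey, with 5 gene lists in colour and rings around the 8 genes with an adjusted p under 0.05. B-cell, neutrophil, erythroid and platelet genes lie along the right arm up to 5.92 for Ms4a1, while most interferon genes lie left of 0.

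The plot of difference against p shows that the 4 blood-cell lists spread to the right. Over all genes, 688 were higher with an unadjusted p under 0.05 (2.65%, limma), and genes outside the lists were not counted by the size of their difference. Other lymphoid and myeloid lists held a smaller share of higher genes than these 4. Of 21 T and NK cell genes 2 were higher and 0 lower with an unadjusted p under 0.05 (against 2.65% and 1.76% of all genes), with a median of -0.03. The 2 were Cd2, an adhesion receptor of lymphocytes, at 1.02 (SE 0.25) and the granzyme Gzma at 0.72 (SE 0.22). Of 19 monocyte and border macrophage genes 2 were higher and 2 lower, beside the same shares of all genes, with a median of 0.01. Its higher genes were Plac8, a protein of myeloid and lymphoid precursors, at -2.77, -2.69 and -2.73 in DKO and at -4.51, -3.72 and -4.49 in Con (difference 1.51, SE 0.24), and the clotting factor gene F10, at 1.97 (SE 0.24).

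**Figure D3:**
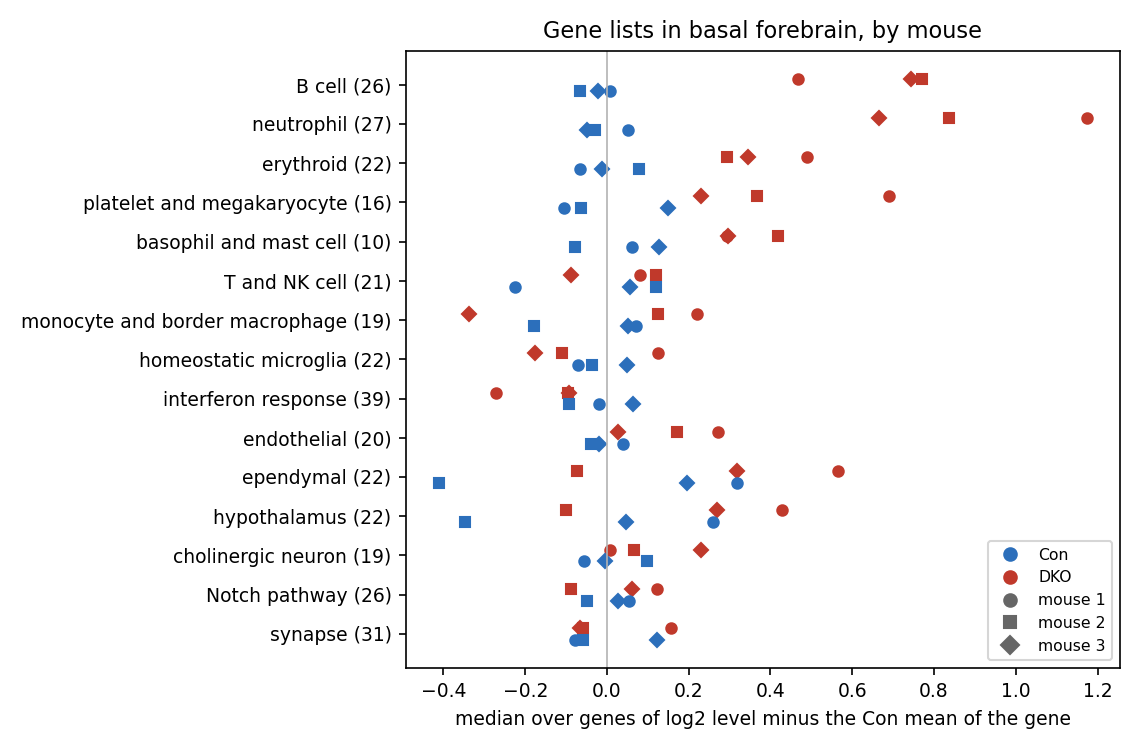
For each gene list (number of measured genes in brackets), the median over its genes of the log2 level minus the mean of the 3 Con mice for that gene (horizontal axis), with 1 point per mouse, DKO in red and Con in blue. The 3 DKO mice lie between 0.47 and 0.77 for B-cell genes and between 0.67 and 1.18 for neutrophil genes, while for T and NK cell, ependymal, hypothalamus and cholinergic lists the DKO and Con mice overlap.

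By mouse, the median shift of the B-cell list was 0.47, 0.77 and 0.74 in DKO 1, 2 and 3 and between -0.07 and 0.01 in Con. That of the neutrophil list was 1.18, 0.84 and 0.67 in DKO. The plot of list medians by mouse therefore places DKO 1 lowest for the B-cell list and highest for the neutrophil, erythroid and platelet lists. With DKO 2 alone against Con, the median differences were 0.77 for B-cell, 0.84 for neutrophil, 0.31 for erythroid and 0.37 for platelet genes.

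Interferon-responsive genes were mostly lower. Of 39 measured genes, 30 had a negative difference, 5 were lower with an unadjusted p under 0.05 (against 1.76% of all genes) and 8 were lower without overlap of the groups (against 5.30%). The median difference was -0.16 (-0.26 with array-median scaling), and the median shift by mouse was -0.27, -0.10 and -0.09 in DKO and between -0.09 and 0.06 in Con. Ifi205, a member of the interferon-inducible p200 family of DNA sensors, stood at -8.75, -8.40 and -8.99 in DKO, with no array above background, and at -6.03, -5.42 and -5.91 in Con. It fell at least 1.77-fold (fitted difference -2.93, SE 0.27, adjusted p = 0.0375, limma), but with normexp background correction it differed by -0.28 (adjusted p = 0.797, limma). A second Ifi205 probe was not above background in either group.

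Other members gave smaller values and none passed. Gbp3, an interferon-induced GTPase, differed by -0.44 (SE 0.13), Oas1a, an enzyme of the antiviral RNase L pathway, by -0.40 (SE 0.14), and Ifi27 by -0.35 (SE 0.10). The antiviral protein Rsad2 went the other way, at -1.40, -2.65 and -1.77 in DKO and -2.92, -3.31 and -3.13 in Con (difference 1.18, SE 0.32, adjusted p = 0.972, limma). Ifi202b, a neighbour and relative of Ifi205, also stood higher in DKO, at 1.05 (SE 0.25).

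Ifi205, Ifi202b and Fcrla lie on chromosome 1 with Psen2, whose null allele the DKO mice carried on both copies and the Con mice on 1. Of 235 measured genes with probes within 10 Mb of the Psen2 probe, Psen2 left out, 26 had an unadjusted p under 0.05 (11.1%, limma), against 4.41% of all genes. Within 5 Mb there were 4 genes (3.74%), within 20 Mb 34 of 406 (8.37%), and on the rest of chromosome 1 there were 43 of 1130 (3.81%). The excess lay in 1 stretch: from 10 to 5 Mb below Psen2, 20 of 101 genes (19.8%) had such a p, 11 higher and 9 lower in DKO, and 26 of the 101 (25.7%) did not overlap between the groups. Of all genes 4.66% were higher and 5.30% lower without overlap, and on the rest of chromosome 1 the groups were apart for 10.1%. This stretch was singled out after the values were seen.

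**Figure D4:**
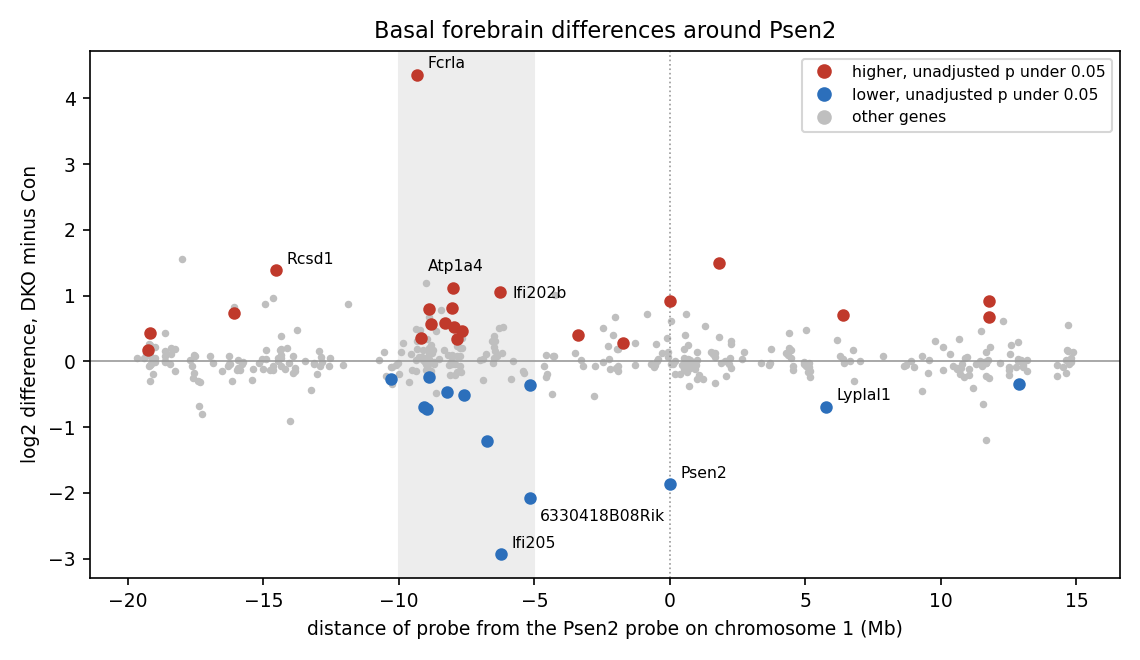
Log2 difference, DKO minus Con (vertical axis), of genes within 20 Mb of Psen2 on chromosome 1 by the distance of their probe from the Psen2 probe in Mb (horizontal axis), with genes at an unadjusted limma p under 0.05 in red (higher) or blue (lower). The shaded stretch from 10 to 5 Mb below Psen2 holds 20 such genes, while 4 lie within 5 Mb of it.

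In that stretch the plot of differences by distance shows changes both ways. The higher genes there include Fcrla, at 4.36, and the immune-cell receptors Fcgr3, at 0.35 (SE 0.13), Slamf6, at 0.59 (SE 0.22), and Slamf8, at 0.46 (SE 0.18). The part of blood-cell genes in this excess was not tested. Kcnj10, the astrocyte potassium channel Kir4.1, stood at 5.68, 5.62 and 5.79 in DKO and at 5.37, 5.30 and 5.41 in Con (difference 0.34, SE 0.08, unadjusted p = 0.00358, limma). The transcription factor Usf1 stood at 0.03, 0.00 and -0.12 in DKO and at -0.74, -0.61 and -0.44 in Con (difference 0.57, SE 0.11). The groups did not overlap for either gene.

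On the lower side, Ppox, an enzyme of haem synthesis, stood at -1.47, -0.86 and -0.95 in DKO and at -0.32, -0.37 and -0.41 in Con (difference -0.72, SE 0.17). The planar polarity gene Vangl2 differed by -0.47 (SE 0.13), the phosphatase Dusp23 by -0.51 (SE 0.14), and Rgs7, a regulator of G-protein signalling in neurons, by -0.36 (SE 0.08). The transcript 6330418B08Rik stood at -5.39, -4.13 and -3.69 in DKO and at -2.18, -1.66 and -3.12 in Con (difference -2.08, SE 0.52). In cortex of the same mice, the differences were 0.35 for Kcnj10, 0.34 for Usf1, -0.46 for Ppox, -0.39 for Rgs7, -2.14 for 6330418B08Rik and -1.97 for Ifi205. The Ifi205 probe was not above background on all 3 cortex arrays of either genotype. On the other side of Psen2, Lyplal1, 5.75 Mb above it, differed by -0.69 in basal forebrain and by -0.87 in cortex. The count of 26 was 44 without Con 2 and 12 with DKO 2 as the only DKO mouse, beside 9.48% and 1.38% of all genes. Whether the sequence under each probe differs between the chromosomes was not tested.

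Among named genes above background on all 6 arrays, at least 0.5 apart and without overlap, the lower ones with the smallest p after Psen2 were Inhba, Rpe65, Greb1, Nts and Vipr1, none of which passed. Inhba, the subunit of activin A and a gene induced by neuronal activity, stood at 0.58, 0.43 and 0.33 in DKO and at 1.24, 1.12 and 1.38 in Con (difference -0.80, SE 0.10, adjusted p = 0.144, limma). In the activin and inhibin list, 3 of 20 genes were lower and 1 higher with an unadjusted p under 0.05 (against 1.76% and 2.65% of all genes), the receptors Acvr1c at -0.41 (SE 0.10) and Acvr1 at -0.30 (SE 0.09) among them. Greb1, an oestrogen-responsive gene, stood at -2.11, -1.87 and -2.06 in DKO and at -0.35, -1.06 and -1.03 in Con (difference -1.20, SE 0.21). All 3 DKO mice were below all 3 Con mice, and the part of sex in this difference was not tested. The neuropeptide gene Nts stood at 3.06, 3.30 and 3.38 in DKO and at 3.86, 3.79 and 3.71 in Con (difference -0.54, SE 0.10).

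Vipr1, a receptor of vasoactive intestinal peptide, differed by -0.61 (SE 0.12), though its second probe differed by -0.12. Both probes of Rpe65, the retinoid isomerase of the visual cycle, differed by -0.92 and -0.91. The early growth response factor Klf10 differed by -0.71 (SE 0.15), the protease Klk6, which oligodendrocytes express, by -0.69 (SE 0.15), the water channel Aqp3 by -0.95 (SE 0.22) and Shisa8, an auxiliary protein of AMPA receptors, by -0.67 (SE 0.16). Among the higher genes, Tox4, a chromatin protein, differed by 1.30 (SE 0.19), but its 2 other probes by 0.34 and 0.01. Of the genes named by this rule or by passing, together with Psen2, Chat, Ly6d, Xist and Eif2s3x, 10 had 13 other probes above background, and 10 of these differed in the same direction as the first.

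The cholinergic markers were present and no member passed. Chat stood at -0.08, 0.26 and -0.04 in DKO and at 0.33, 1.00 and -0.30 in Con, and the groups overlapped (difference -0.30, 95% interval -1.01 to 0.42). Its 3 other probes above background differed by 0.53, -0.09 and 0.09. Of 19 measured genes 2 were higher and 0 lower with an unadjusted p under 0.05 (limma, against 2.65% and 1.76% of all genes), with a median difference of 0.10. The 2 were the transcription factors Lhx8, at 0.28 (SE 0.11), and Nkx2-1, at 0.40 (SE 0.15). Slc18a3, the vesicular acetylcholine transporter, stood at 1.33, 1.18 and 1.46 in DKO and at 1.24, 1.42 and 1.31 in Con, a difference of 0.00 (95% interval -0.22 to 0.22). The choline transporter Slc5a7 differed by 0.11 (95% interval -0.15 to 0.36). Whole-tissue RNA bounds the change of these transcripts and does not read recombination in single cells.

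Of 19 genes of gamma-secretase and the other secretases, Psen2 alone passed, and Adam17, an alpha-secretase, differed by -0.30 (SE 0.12). Of 26 Notch pathway genes 0 passed, and 1 was higher with an unadjusted p under 0.05 (limma), a share near the 2.65% of all genes, with a median difference of 0.00. That gene was Notch1, at -1.09, -0.77 and -0.92 in DKO and -1.96, -1.02 and -2.70 in Con (difference 0.97, SE 0.39). The Notch target Hes5 stood at 4.16, 3.61 and 3.63 in DKO and at 4.12, 4.17 and 4.13 in Con (difference -0.34, SE 0.15), and the groups overlapped.

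Of 22 homeostatic microglia genes 0 were higher and 2 lower with an unadjusted p under 0.05 (limma, against 2.65% and 1.76% of all genes), with a median of -0.04. The microglial Aif1 stood at 1.30, 1.28 and 1.23 in DKO and at 1.45, 1.63 and 1.62 in Con (difference -0.30, SE 0.08), and Trem2, a microglial lipid receptor, also differed by -0.30 (SE 0.08). Of 20 disease-associated microglia genes 1 was higher and 0 were lower. It was Ch25h, the enzyme that makes an oxysterol, at 0.39, -0.96 and -0.95 in DKO and at -2.29, -2.81 and -2.87 in Con (difference 2.15, SE 0.38, adjusted p = 0.559, limma). Of 16 astrocyte genes 3 were higher and 2 lower, with 10 positive differences and a median of 0.05. The lower ones were Aqp4, the water channel of astrocyte endfeet, at -0.48 (SE 0.10), and Fabp7, a fatty acid carrier, at -0.97 (SE 0.28), and the higher ones included the transcription factor Sox9, at 0.41 (SE 0.15). Of 20 endothelial genes 5 were higher and 1 lower (against 2.65% and 1.76% of all genes), with a median of 0.16. Vwf, which endothelial cells and platelets both make, stood at 3.37, 2.81 and 2.38 in DKO and at 1.90, 1.69 and 1.72 in Con (difference 1.09, SE 0.23), and the receptor Flt1 differed by 0.30 (SE 0.06).

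The glucocorticoid-response list stood higher in DKO 1 and DKO 2 than in the other mice. Of 24 glucocorticoid-response genes 21 had a positive difference and 4 were higher with an unadjusted p under 0.05 (limma, against 2.65% of all genes), with a median of 0.20, and the list's median shift was 0.27, 0.45 and -0.04 in DKO and between -0.05 and 0.12 in Con. DKO 3 therefore lay within the Con mice. Angptl4, a secreted inhibitor of lipoprotein lipase, stood at 0.93, 1.12 and 0.44 in DKO and at 0.03, -0.11 and 0.36 in Con (difference 0.73, SE 0.20). The sulfotransferase Sult1a1 differed by 0.98 (SE 0.25). The largest difference of the list, 3.02, was that of Lcn2, which is also in the neutrophil list. Outside the glucocorticoid-response list, Lrg1, an acute-phase glycoprotein of the neutrophil list, differed by 2.39 (SE 0.49). Of 30 immediate early genes 1 was higher and 4 were lower, against 2.65% and 1.76% of all genes. Beside Inhba, the lower ones were Egr3 at -0.32 (SE 0.09), Ier5 at -0.32 (SE 0.11) and Gadd45b at -0.25 (SE 0.10), and the higher one was Klf2, at 0.35 (SE 0.11).

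The cell division list, written after the values were seen, had 1 of 19 genes higher and 2 lower with an unadjusted p under 0.05, against 2.65% and 1.76% of all genes, and a median of -0.23. The higher one was E2f2, a cell-cycle transcription factor, at -1.48, -1.84 and -1.87 in DKO and at -2.56, -2.77 and -2.56 in Con (difference 0.90, SE 0.15). The mitotic kinase Cdk1 differed by -0.97 (SE 0.35), and its groups overlapped. Among lysosomal genes, Grn, which encodes progranulin, stood at 7.89, 8.00 and 7.89 in DKO and at 7.35, 7.15 and 6.22 in Con (difference 1.01, SE 0.28), so that Con 3 was the lowest mouse.

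For tissue that borders the basal forebrain, the ependymal and hypothalamus lists overlapped between the genotypes in their median shift by mouse. Of 22 ependymal genes 20 had a positive difference, against 51% of all genes, with a median of 0.30. Of these, 2 were higher with an unadjusted p under 0.05 (limma, against 2.65% of all genes). The median shift of that list was 0.57, -0.07 and 0.32 in DKO and 0.32, -0.41 and 0.20 in Con, so the groups overlapped. The hypothalamus list moved in the same mice, at 0.43, -0.10 and 0.27 in DKO and 0.26, -0.35 and 0.05 in Con. Its hormone gene Avp stood at 3.77, -1.14 and 0.46 in DKO and at 1.05, -3.53 and -1.70 in Con, and the groups overlapped (difference 2.42, SE 1.49). The 3 measured pituitary genes, 31 synapse genes and 30 oxidative phosphorylation genes held 0, 1 and 0 genes at an unadjusted p under 0.05, against 4.41% of all genes.

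Whether the genotype difference in basal forebrain departed from that in cortex was tested on the within-mouse difference of the regions. Of 24777 genes 0 passed (0%, limma), with 2222 (8.97%) at an unadjusted p under 0.05 and a smallest adjusted p of 0.381. A fit of all 12 arrays with the mouse as a random block also gave 0, with 2594 genes at an unadjusted p under 0.05. Without DKO 3, 1318 genes passed. The Con cortex arrays and that of DKO 3 lay on slide 2. Those of DKO 1 and DKO 2 lay on slide 1. Genotype and cortex slide were therefore partly tied in this test and in every cortex difference given here. Without DKO 3, genotype and cortex slide cannot be told apart. With all mice, the genes with the smallest p were Kif14 and Hjv. Kif14, a mitotic kinesin, differed by 0.55 in basal forebrain and by -0.71 in cortex. Hjv, a co-receptor of iron sensing, differed by 0.44 and -1.13. Abcb11 and Tex47, with region differences of 1.71 (SE 0.23) and 0.90 (SE 0.13), were also among the 5 smallest. So was Ly6d, at 3.67 in basal forebrain and 1.33 in cortex (unadjusted p = 0.000236, adjusted p = 0.537, limma).

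For the genes that passed, both regions gave values on the same side of 0. Cd79b differed by 2.49 in basal forebrain and by 2.47 in cortex, Psen2 by -1.87 and -2.12, and the lambda probe by 3.10 and 3.40. Ms4a1 differed by 5.92 and 4.93, Fcrla by 4.36 and 3.26, Spib by 3.46 and 2.69 and Cxcr5 by 3.56 and 2.88. Cxcr5 and Ifi205 were not in the test of regions. In cortex neither genotype had their probes above background on all 3 arrays, so their cortex differences rest partly on values near background. The regions came from the same mice, so these values do not count as separate evidence.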

How the data were processed

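RNA from 12 tissue samples of 6 mice was hybridised to 1-colour Agilent arrays, and 6 basal forebrain arrays were compared here. The scanner files hold processed intensity per spot, written by Agilent Feature Extraction 10.7.1.1 per the file headers, background-subtracted, with no scaling across arrays. The authors' normalized log2 values, in the deposited table of the series, have nearly equal sorted values on all arrays. They served as an alternative. Their method: not given in the sources used here.

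Log2 intensity minus the 75th percentile of each array was used. Of 56605 probes 56568 were kept, and 32972 took a current RefSeq symbol. The brightest probe over 12 arrays stood for a gene, which was tested if the scanner flagged that probe as well above background in all 3 mice of 1 or both genotypes. limma 3.58.1 (R 4.3.3, lmFit, eBayes with trend) compared 3 mice with 3, with Benjamini-Hochberg adjustment over 25914 genes. The median SE was 0.144, and 85.7% of genes had a 95% interval within 1 of 0. The number of mice limits this precision. The comparison of regions used the difference of the 2 arrays of each mouse.

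Named were Psen2, Chat, the genes that passed, 12 genes per direction with the smallest p among genes above background on all arrays, with groups apart by at least 0.5 in mean and without overlap, members of the gene lists, and the 5 genes with the smallest p in the comparison of regions. Genes of the chromosome 1 stretch were chosen after their values were seen. All members and lists were chosen with earlier results of these data known, and 4 lists were written after the values were seen. The test was checked on simulated data. Alternatives covered scaling, background, filter, probe choice, names, weights, blocks and leaving out mice. Results for the other gene targeted in these mice, its alleles and some other genes are not reported here.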

Additional observations from a re-analysis of the deposited data

How the results depend on the processing

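All 8 genes that passed kept their direction in every alternative that gave them a value, while the calls depended on the setting. Quantile scaling and the authors' normalized values each gave 7 genes higher and 2 lower. The array median gave 16 higher, and normexp background correction 4 higher and 1 lower. No filter on dim probes gave 3 higher and 0 lower, probes above background on all 6 arrays 2 and 0, and testing every probe 7 and 4. eBayes without trend gave 5 and 1, array weights 47 and 22, and 12 arrays in 4 groups with the mouse as a random block 22 and 4. The replicate numbers did not pair the mice, since deviations of same-numbered mice correlated at 0.06, 0.41 and -0.45. With the replicate block 0 genes were higher and 0 lower (limma, 4.19% at an unadjusted p under 0.05). Leaving out 1 mouse gave 0 to 12 higher and 0 to 17 lower. With DKO 2 as the only DKO mouse the counts were 0 and 0, and in row 1 of the slide, an alternative chosen after seeing the data, 1 and 0.

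The count of 26 genes near Psen2 was 78 with array weights (21.7% of all genes), 12 with DKO 2 alone, 4 in the 5 Mb window, and 19 to 44 without 1 mouse. The comparison of regions gave 0 to 1318 genes without 1 mouse, the 1318 without DKO 3, where genotype and cortex slide coincided. The B-cell list median ranged from 0.30 to 0.77 and the neutrophil median from 0.42 to 1.09. The interferon median ranged from -0.26 to -0.09, and that of T and NK cell genes changed sign in 7 of 21 alternatives. The cause of these changes was not tested, except that leaving out mice or probes removes data. No scaling moved the median of all genes by over 0.1. Signals near background limit Ms4a1, Fcrla, Cxcr5 and Ifi205 to bounds, and with normexp background correction their differences were smaller than these bounds.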
